A study of Homo sapiens with 24 samples.

Results

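The homologous recombination and Fanconi anemia genes studied here are 36 genes picked by symbol from a table of read counts for 23354 human genes. All 36 were in the table, and all 36 passed the filter on low counts in both cell lines. RNA was sequenced from 2 acute myeloid leukemia (AML) cell lines. MV4-11 carries an MLL rearrangement and a FLT3 internal tandem duplication, and KG-1a is an immature CD34+ subline of KG-1. The cells of each line were left without drug, given 1 µM 8-chloro-adenosine (8CA) or given 1 µM 8-amino-adenosine (8AA), and were collected at 8 h or 24 h. This gave 12 groups of 2 libraries, called A and B, and 24 libraries in all. Each cell line stands for itself as a model, and the labels name neither a vehicle for the untreated cells nor separate cultures behind A and B. The p-values therefore measure the spread between these libraries, which may be technical. In bulk RNA, fewer cells of a type and less RNA per cell cannot be told apart.

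Homologous recombination repairs a broken chromosome by copying the intact sister. The kinases ATM and ATR sense breaks and stalled forks, nucleases trim the broken ends, and BRCA1, PALB2 and BRCA2 prepare the exposed strand for pairing with the intact copy. The Fanconi anemia core complex attaches ubiquitin to FANCD2 and FANCI at crosslinked DNA, which brings in nucleases that cut the crosslink free. Many of these genes are transcribed mainly in dividing cells, around DNA replication. 8CA and 8AA are adenosine analogs that differ in the group at the 8 position of the base, a chlorine or an amino group, and both are built into RNA.

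The libraries held 18633963 to 24520078 counted reads. The lines kept their identities: CD34 measured 325 to 629 CPM (read counts scaled to a common library size) over the 12 KG-1a libraries and 0 to 0.175 over the 12 of MV4-11, and FLT3 measured 426 to 621 CPM in MV4-11 and 0.159 to 1.32 in KG-1a. Other listed markers were less clear-cut in KG-1a, where the myeloid genes SPI1, CD33 and MPO were at 0.0943 to 7.81 CPM and the T cell gene CD3E was at 22.2 to 78.3 CPM. HOXA9, listed for MV4-11, was higher in KG-1a (22.3 to 27.8 CPM) than in MV4-11 (7.11 to 9.4 CPM). Of the red cell genes, HBA1 had no read in any library, while HBB had 0 to 23 reads (at most 1 CPM) in MV4-11 and 0 in KG-1a. One pair of libraries stood apart. The 2 libraries of KG-1a with 8AA at 24 h differed from each other by 12.25 times sampling noise (chi-square per degree of freedom over all genes) and by 24.36 times over the 36 genes, against 1.432 to 5.201 and 1.873 to 5.725 in the other 11 groups. The counts of called genes with 8AA in KG-1a at 24 h are therefore also given without each of its libraries, as are the single genes whose call or direction changed.

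In untreated cells, the levels per kilobase of exon ran from 3.06 to 43.6 RPKM (the same per kilobase of exon) in MV4-11 and from 1.73 to 51.5 RPKM in KG-1a. TOPBP1, an activator of ATR, was the most abundant in MV4-11 at 43.6 ± 4.08 RPKM (mean ± SD, n = 4), followed by NBN, the break sensor of the MRE11 complex, at 36.4 RPKM. NBN led in KG-1a at 51.5 RPKM and CHEK1, the checkpoint kinase below ATR, was next at 48.9 RPKM. ATRIP, the partner of ATR, was lowest in both lines, at 3.06 RPKM in MV4-11 and 1.73 RPKM in KG-1a. Of the 35 neighbouring pairs in the order of RPKM, 28 in MV4-11 and 25 in KG-1a overlapped over their 4 untreated libraries, so most ranks next to each other were not separate.

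The lines differed in most of these genes before any drug, at shares (50% lower and 38.9% higher) near those of all genes. Of the 36, 18 were lower and 14 were higher in untreated MV4-11 than in untreated KG-1a at an adjusted p below 0.05, against 44.3% of all genes lower and 43.1% higher (edgeR's quasi-likelihood test, Benjamini-Hochberg adjustment over all genes tested, as for every call here). RAD50, the ATPase of the MRE11 complex, differed most and was 4.73-fold higher in MV4-11, a log2 difference of 2.24 ± 0.05 (SE, adjusted p = 5.8e-23). CHEK1 went the other way, with a log2 difference of -1.62 ± 0.04 (SE, adjusted p = 1.12e-22). CHEK2, the checkpoint kinase below ATM, and ATRIP were higher in MV4-11, by log2 differences of 0.83 and 0.82. The nuclease MUS81 and FANCD2 were lower, at -0.75 and -0.73. The calls on 30 of the 32 genes held in every alternative setting tried.

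**Figure D1:**
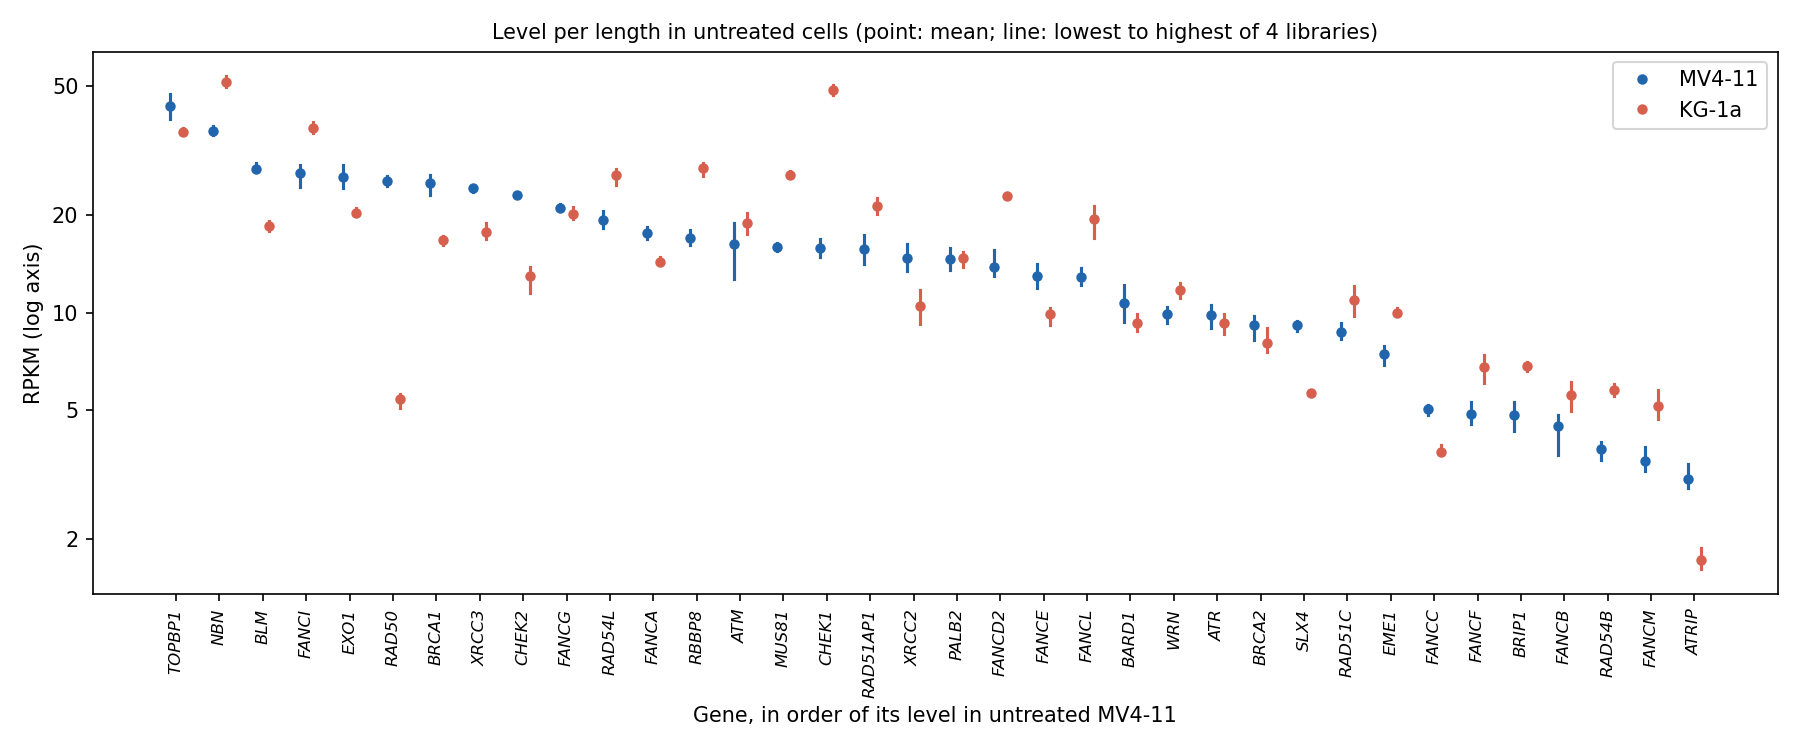
RPKM on a log axis in untreated cells of each line, for the 36 genes in order of their level in untreated MV4-11. The point is the mean and the line runs from the lowest to the highest of the 4 libraries. RAD50 is higher in MV4-11 by 2.24 on the log2 scale and CHEK1 is lower by 1.62, and ATRIP is lowest in both lines.

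Few of the 36 passed as different between the times in untreated cells. In MV4-11, 26 of them were higher at 24 h than at 8 h and 10 were lower, at a median log2 difference of 0.084 against 0.0013 over all genes. There 12 were below an unadjusted p of 0.05 (edgeR's quasi-likelihood test), against 21.3% of all genes. In MV4-11, ATM and TOPBP1 were higher at 24 h than at 8 h, by log2 differences of 0.42 ± 0.07 (SE, adjusted p = 0.00308) and 0.23 ± 0.04 (SE, adjusted p = 0.00524), while the 34 others did not pass. The ATM call was lost without untreated 24 h A (log2 difference 0.39, adjusted p = 0.0514), and the TOPBP1 call without untreated 24 h A, untreated 8 h A or untreated 24 h B (adjusted p = 0.0533 to 0.0729). For all genes, 2.16% were lower and 3.38% were higher at 24 h. No member passed in KG-1a by this test, where 2 were below an unadjusted p of 0.05 and DESeq2 called 0, beside 1.97% of all genes lower and 2.49% higher. These untreated libraries are also the baseline of the drug comparisons.

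At 24 h most of the 36 genes were lower in treated MV4-11 cells, and in KG-1a about as many were higher as lower. In MV4-11, 19 of the 36 were lower and 4 were higher with 8CA, against 22.7% and 21.2% of all genes. With 8AA, 22 were lower and 3 were higher, against 15.3% and 13.9%. These 8AA counts fell with 1 library left out, to 12 lower and 2 higher without untreated A, 15 and 2 without untreated B and 16 and 1 without 8AA A or 8AA B, and 10 of the 25 calls held in every alternative tried. In KG-1a at 24 h, 6 were lower and 8 higher with 8CA, against 24% and 23.4% of all genes, and 7 were lower and 8 higher with 8AA, against 26.6% and 25.4%. The KG-1a split with 8AA depended on the library, at 8 lower and 14 higher without 8AA A, 13 and 6 without 8AA B, 6 and 5 without untreated A and 7 and 3 without untreated B. With 8CA in KG-1a it was 3 and 3 without 8CA B, 4 and 4 without untreated A and 7 and 4 without untreated B. The median log2 fold change over the 36 in MV4-11 was -0.21 for 8CA and -0.24 for 8AA, against 0.01 for 8CA and -6.9e-05 for 8AA in KG-1a, and medians over all genes lay between 0.0022 and 0.013. 8CA and 8AA share the untreated libraries of a line and time, so their values stand side by side and are not separate evidence. Scaling by library size alone called 18.2% of all genes lower and 26.2% higher with 8CA and 10.9% and 19.2% with 8AA in MV4-11, and 21.8% and 26% and then 19.6% and 35.6% in KG-1a. Under it the 36 split into 16 lower and 6 higher and 14 and 3 in MV4-11, and into 5 and 8 and 6 and 15 in KG-1a, and upper-quartile scaling gave 3 lower and 8 higher in KG-1a with 8CA. The changes were small in size: no log2 fold change went beyond -0.62 or 0.47 at 24 h.

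**Figure D2:**
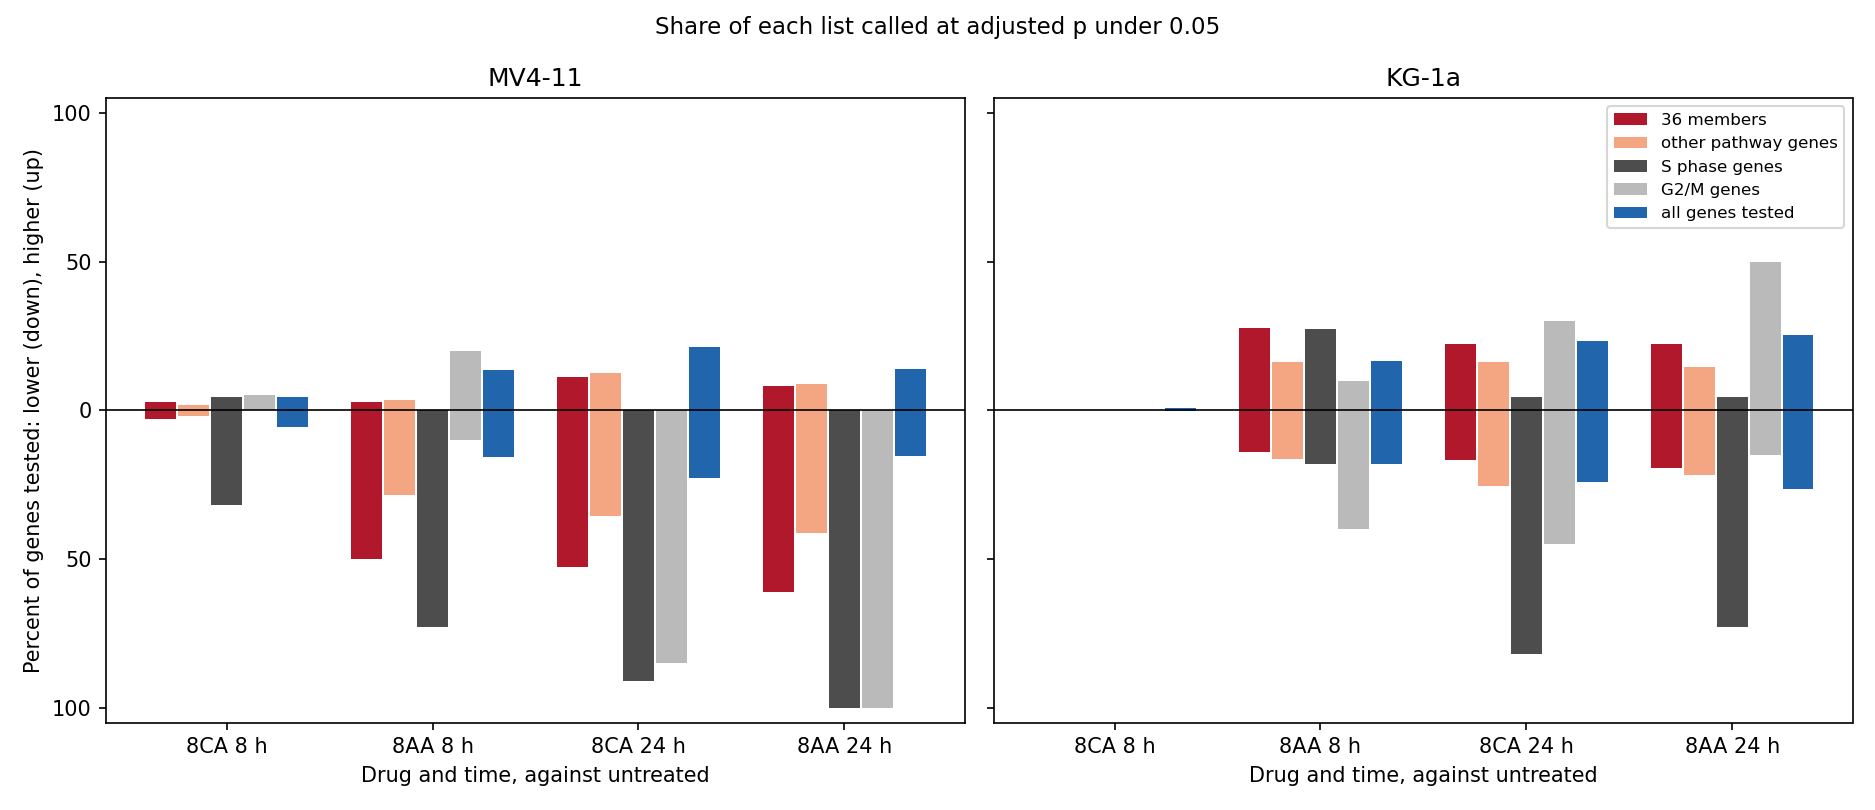
Percent of genes called lower (bars down) and higher (bars up) in each of the 8 drug comparisons, with MV4-11 on the left and KG-1a on the right. Shares are given for the 36 genes, the other genes of the pathway, S phase genes, G2/M genes and all genes tested. In MV4-11 at 24 h, 52.8% (8CA) and 61.1% (8AA) of the 36 were lower, above the 22.7% and 15.3% of all genes, while in KG-1a 16.7% and 19.4% were lower, below the 24% and 26.6% of all genes.

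At 8 h, 8AA gave most of the calls. In MV4-11, 18 of the 36 were lower and 1 was higher with 8AA, against 15.6% and 13.6% of all genes, while 1 (WRN) was lower and 1 (SLX4) was higher with 8CA, against 5.77% and 4.58%. The WRN value with 8CA was -0.24 ± 0.06 (SE, adjusted p = 0.029), lost without 8CA A, 8CA B or untreated B (adjusted p = 0.0916 to 0.184), and the SLX4 value was 0.17 ± 0.05 (SE, adjusted p = 0.0387), lost without 8CA A, untreated B, untreated A or 8CA B (adjusted p = 0.0706 to 0.262). In KG-1a, 5 were lower and 10 were higher with 8AA, against 18% and 16.7% of all genes. Calls shared by the lines or opposed between them with 8AA at 8 h were not counted over all genes. ATR, ATRIP and WRN were lower in both lines. A further 5 genes (CHEK1, XRCC2, RAD54L, RAD54B and FANCL) were lower in MV4-11 and higher in KG-1a, a difference that was not tested at this time. Of these calls, RAD54B in KG-1a was lost without any 1 of its 4 libraries (adjusted p = 0.0666 to 0.223) and WRN in KG-1a without 8AA A, 8AA B or untreated B (adjusted p = 0.0543 to 0.0992). In MV4-11, ATRIP was lost without 8AA A, 8AA B or untreated A (adjusted p = 0.0837 to 0.315), CHEK1 without 8AA B, untreated A or untreated B (adjusted p = 0.0542 to 0.28) and FANCL without the same 3 libraries (adjusted p = 0.0749 to 0.298). With 8CA in KG-1a at 8 h, edgeR's quasi-likelihood test and DESeq2 called 0 of the 36, with 5 below an unadjusted p of 0.05, against 0.181% of all genes called lower and 0.7% higher.

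**Figure D3:**
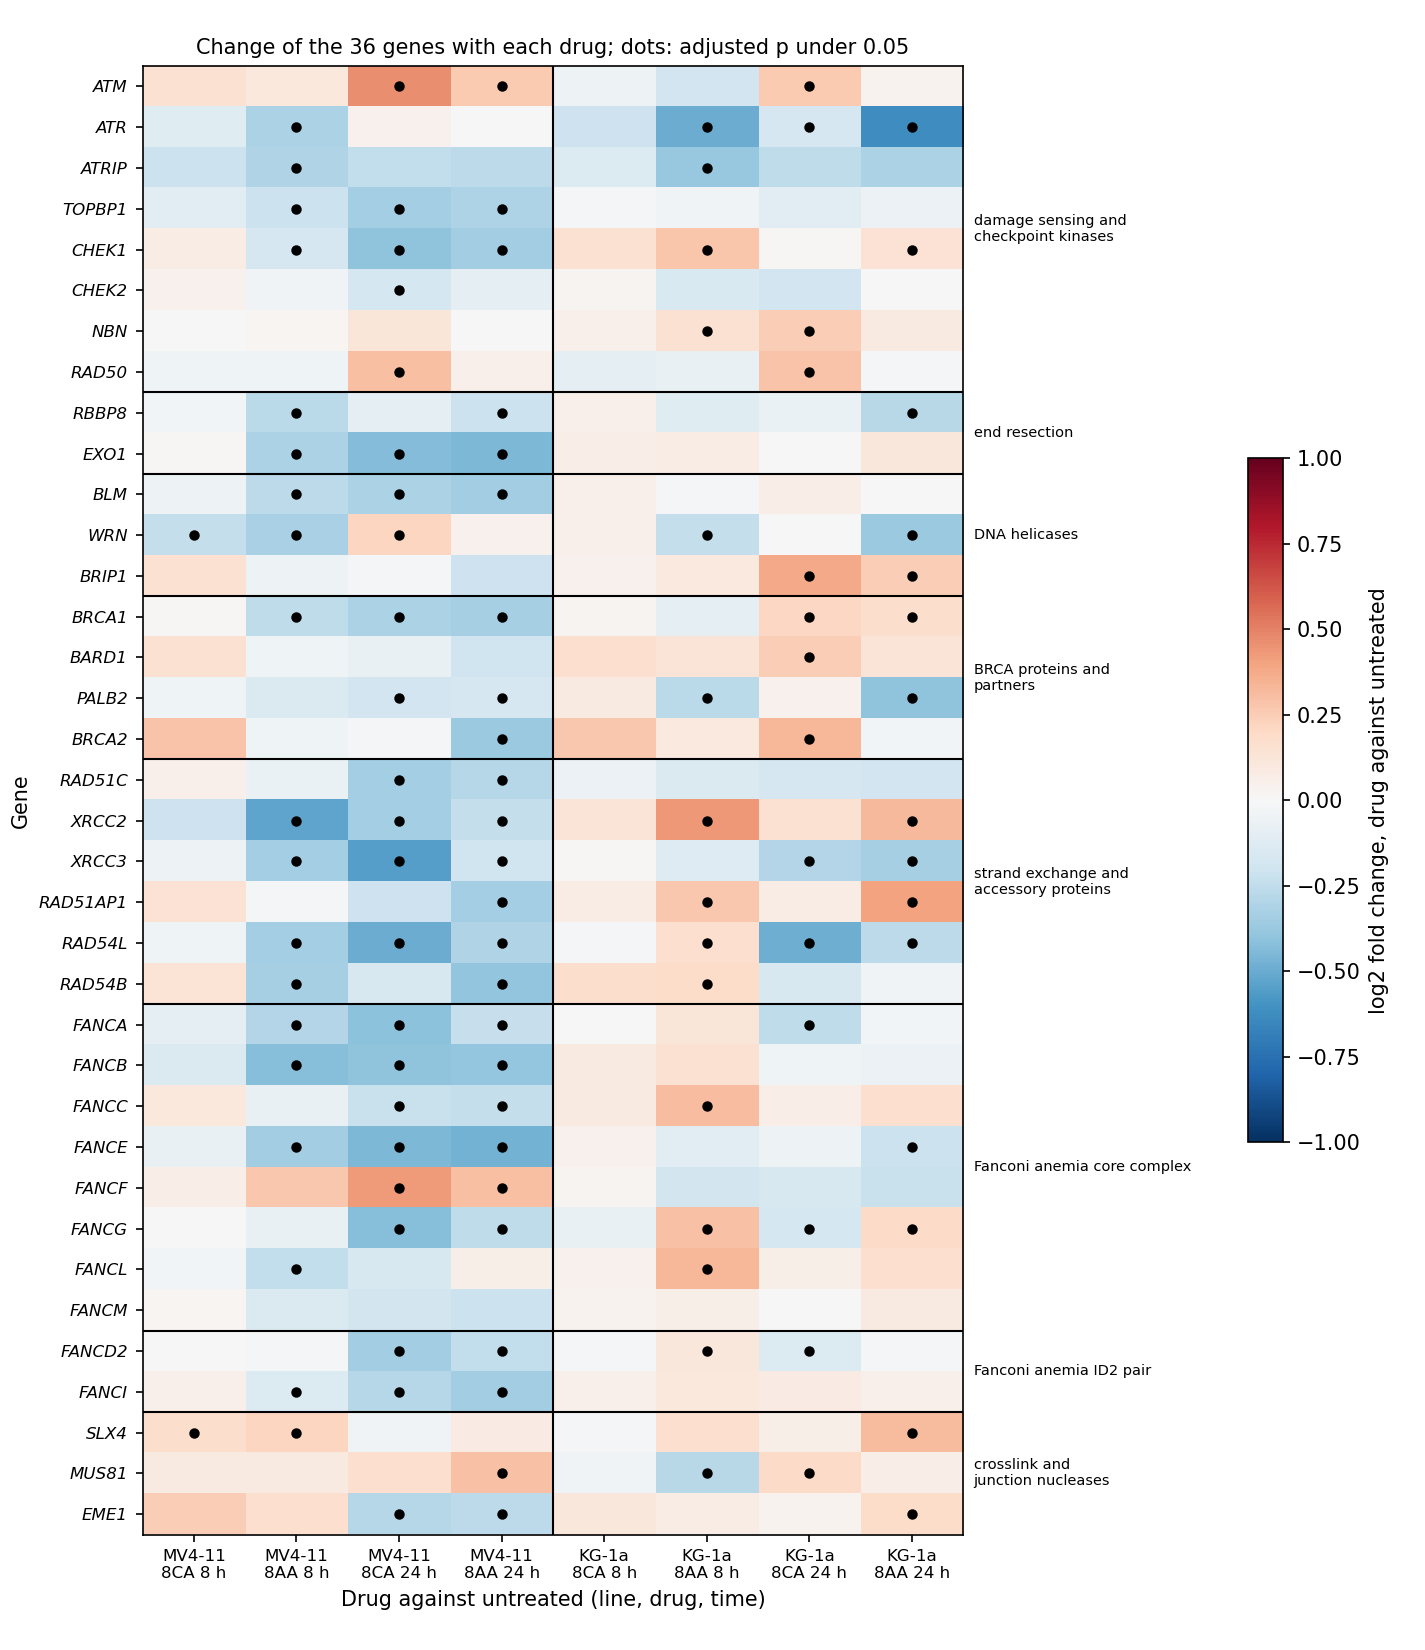
Log2 fold change of drug over untreated for the 36 genes (rows, by role) in the 8 comparisons (columns), with dots on those called. The MV4-11 columns at 24 h are mostly blue (lower; 19 and 22 genes called), and the KG-1a columns mix both directions (6 and 7 lower, 8 and 8 higher).

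XRCC3 and RAD54L were lower at 24 h with both drugs in both lines. Of the 36, only these 2 passed as lower in each of the 4 comparisons, and 0 passed as higher in each. Calls shared by all 4 comparisons were not counted over all genes, so these 2 are not shown to exceed that share. ATRIP also had negative log2 fold changes in all 4, but did not pass in any. XRCC3, which acts in homologous recombination, measured 62.8 and 62.2 CPM without drug, 43.1 and 42.4 after 8CA and 54.9 and 54.2 after 8AA in MV4-11 at 24 h. In KG-1a it measured 47.4 and 49.5 CPM without drug, 39.99 and 39.1 after 8CA and 40.5 and 36.5 after 8AA. Every treated library was below both untreated ones of its line. The log2 fold changes in MV4-11 were -0.55 ± 0.06 (SE, adjusted p = 1.93e-06) with 8CA and -0.20 ± 0.06 (SE, adjusted p = 0.0137) with 8AA, and those in KG-1a were -0.29 ± 0.07 (SE, adjusted p = 0.00281) and -0.33 ± 0.07 (SE, adjusted p = 0.000956). The MV4-11 8AA call was lost without 8AA B or untreated A (adjusted p = 0.0608 to 0.0626), and the other 3 held in every alternative tried. XRCC3 shares 3935 bases with the gene KLC1, and the sources used here do not say whether the counting used strand.

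RAD54L, the motor protein RAD54 that drives strand exchange, measured 60.6 and 56.4 CPM without drug, 41.2 and 41.7 after 8CA and 47.6 and 47.3 after 8AA in MV4-11 at 24 h. The KG-1a libraries held 89.2 and 90.7 CPM without drug, 66.9 and 61.1 after 8CA and 74.7 and 75.5 after 8AA. Again no treated library reached an untreated one. By the deposited positions, RAD54L lies wholly within the spans given for LOC100132062 and LOC100133331 (30779 bases each) and shares 74 bases with LRRC41. Its log2 fold changes were -0.50 ± 0.06 (SE, adjusted p = 1.38e-05) and -0.30 ± 0.06 (SE, adjusted p = 0.00179) in MV4-11 and -0.49 ± 0.06 (SE, adjusted p = 4.92e-06) and -0.26 ± 0.06 (SE, adjusted p = 0.0011) in KG-1a, and all 4 calls held in every alternative. At 8 h, 8AA moved RAD54L apart in the lines, to a log2 fold change of -0.34 ± 0.06 (SE, adjusted p = 0.000801) in MV4-11 and of 0.16 ± 0.06 (SE, adjusted p = 0.0309) in KG-1a. The KG-1a call at 8 h was lost without 8AA B, 8AA A or untreated B (adjusted p = 0.0876 to 0.27).

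The other 4 genes of strand exchange were also lower with 8AA in MV4-11 at 24 h, against 15.3% of all genes. For 3 of them (XRCC2, RAD51AP1 and RAD54B) the change with 8AA was lower in MV4-11 than in KG-1a when tested directly, against 8.51% of all genes. The RAD54B difference, -0.34 ± 0.10 (SE, adjusted p = 0.0116), was lost without KG-1a untreated B (log2 difference -0.28, adjusted p = 0.0693). XRCC2, also a homologous recombination gene, measured 48.5 and 44.4 CPM without drug, 37 and 36.4 after 8CA and 37.8 and 41.1 after 8AA in MV4-11 at 24 h and 37.7 and 36 CPM without drug, 41.2 and 40.6 after 8CA and 40.7 and 51.9 after 8AA in KG-1a. The treated libraries lay below the untreated ones in MV4-11, and above them in KG-1a. With 8AA the log2 fold changes were -0.24 ± 0.07 (SE, adjusted p = 0.0193) and 0.33 ± 0.09 (SE, adjusted p = 0.00562), and the MV4-11 change less the KG-1a change was -0.54 ± 0.12 (SE, adjusted p = 0.00163). The KG-1a call was lost without untreated B or 8AA B (adjusted p = 0.0544 to 0.0898) and the MV4-11 call without 8AA A or untreated A (adjusted p = 0.144 to 0.158), while the 8AA difference between the lines held throughout. The same opposition was present at 8 h, at log2 fold changes of -0.53 ± 0.07 (SE, adjusted p = 7.58e-05) in MV4-11 and 0.43 ± 0.09 (SE, adjusted p = 0.00176) in KG-1a with 8AA.

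RAD51AP1, an accessory protein of strand exchange, showed the largest line difference with 8AA. It measured 34.9 and 39.6 CPM without drug, 33.1 and 31.6 after 8CA and 30.7 and 28.2 after 8AA in MV4-11 at 24 h and 54.1 and 50.4 CPM without drug, 53.3 and 56.7 after 8CA and 63.4 and 75.2 after 8AA in KG-1a, where both 8AA libraries were above the untreated ones. The log2 fold change in KG-1a with 8AA was 0.40 ± 0.08 (SE, adjusted p = 0.000469), 0.52 (adjusted p = 2.62e-07) without 8AA A and 0.28 (adjusted p = 0.00129) without 8AA B. In MV4-11 it was -0.34 ± 0.09 (SE, adjusted p = 0.0133), a call lost without 8AA B or untreated B (adjusted p = 0.107 to 0.154). The difference between the lines was -0.72 ± 0.13 (SE, adjusted p = 0.000187), higher in KG-1a, and held in every alternative. RAD54B, a relative of RAD54L, had a log2 fold change of -0.40 ± 0.07 (SE, adjusted p = 0.000596) with 8AA in MV4-11 and of -0.03 in KG-1a, which did not pass, and RAD51C, which pairs with XRCC3, fell in MV4-11 by both calls, at -0.34 with 8CA and -0.28 with 8AA. The RAD51C call was lost without 8CA B (log2 fold change -0.22, adjusted p = 0.0773) for 8CA and without 8AA A, untreated A, untreated B or 8AA B (adjusted p = 0.0689 to 0.0962) for 8AA.

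**Figure D4:**
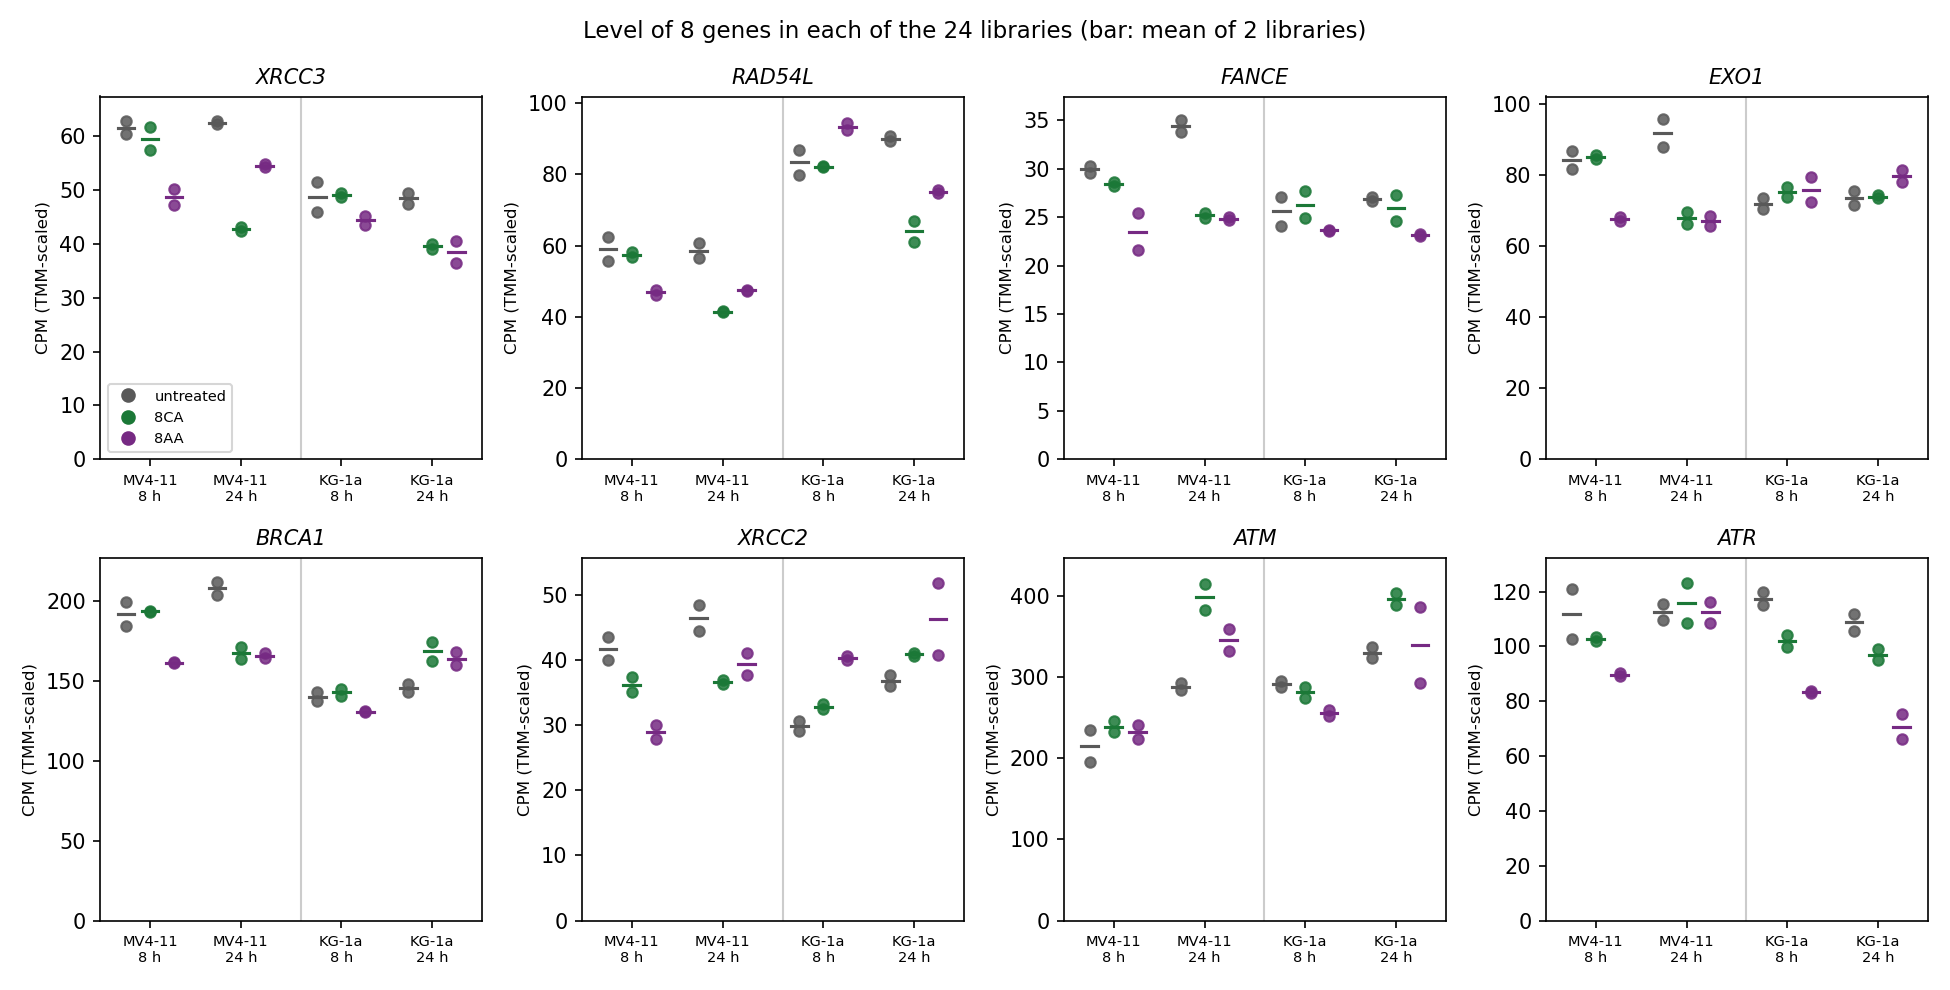
TMM-scaled CPM of 8 genes in all 24 libraries (points; the lines mark group means), by line, time and drug. XRCC3 and RAD54L are lower with both drugs in both lines at 24 h, EXO1 and FANCE fall in MV4-11 with both drugs, and the 2 KG-1a 8AA libraries at 24 h are apart for ATM (293 and 386 CPM).

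BRCA1 moved in opposite directions in the lines. BRCA1, the ubiquitin ligase that commits breaks to recombination, measured 212 and 204 CPM without drug, 171 and 163 after 8CA and 164 and 167 after 8AA in MV4-11 at 24 h. In KG-1a the libraries held 148 and 143 CPM without drug, 163 and 174 after 8CA and 160.02 and 168 after 8AA. The treated libraries were below both untreated ones in MV4-11 and above both in KG-1a. The log2 fold changes were -0.31 ± 0.05 (SE, adjusted p = 6.48e-05) and -0.33 ± 0.05 (SE, adjusted p = 0.000105) in MV4-11 and 0.21 ± 0.05 (SE, adjusted p = 0.00237) and 0.17 ± 0.05 (SE, adjusted p = 0.00801) in KG-1a, for 8CA and 8AA. Tested directly, the lines differed by -0.50 ± 0.07 (SE, adjusted p = 2.12e-05) with 8CA and -0.48 ± 0.07 (SE, adjusted p = 1.31e-05) with 8AA, and both calls held in every alternative. The rises in KG-1a were less firm, since the 8CA call was lost without 8CA B (log2 fold change 0.16, adjusted p = 0.0546) and the 8AA call without untreated B (log2 fold change 0.15, adjusted p = 0.0829). BRCA1 shares 28089 bases of its span with NBR2 and has a partial copy nearby, so its counts could hold reads of either.

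BRCA2, which acts at the break after end trimming, measured 106 and 108 CPM without drug, 113 and 98.3 after 8CA and 88.4 and 76.4 after 8AA in MV4-11 and 94.4 and 89.6 CPM without drug, 112 and 119.7 after 8CA and 74.3 and 107 after 8AA in KG-1a at 24 h. It fell with 8AA in MV4-11, at a log2 fold change of -0.37 ± 0.11 (SE, adjusted p = 0.0197), and rose with 8CA in KG-1a, at 0.33 ± 0.11 (SE, adjusted p = 0.0229). The call in MV4-11 was lost without untreated A, untreated B or 8AA B (adjusted p = 0.0771 to 0.177), and that in KG-1a without untreated A, 8CA B or untreated B (adjusted p = 0.0729 to 0.135). With 8AA in KG-1a the result turned on the library: the log2 fold change was 0.21 (adjusted p = 0.00781) without 8AA A and -0.31 (adjusted p = 0.000309) without 8AA B. BARD1, the partner of BRCA1, rose in KG-1a with 8CA at 0.24 ± 0.07 (SE, adjusted p = 0.00899), a call lost without untreated B (log2 fold change 0.21, adjusted p = 0.0749), and did not pass in MV4-11.

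PALB2, the bridge between BRCA1 and BRCA2, fell with 8AA in both lines. It measured 61 and 58.6 CPM without drug, 61.5 and 61.9 after 8CA and 45.1 and 45.5 after 8AA in KG-1a at 24 h, where the 8AA libraries were below all others, and the log2 fold change was -0.40 ± 0.05 (SE, adjusted p = 1.47e-05), a call held in every alternative. In MV4-11 its log2 fold changes were -0.19 ± 0.05 (SE, adjusted p = 0.00778) with 8CA and -0.17 ± 0.05 (SE, adjusted p = 0.0235) with 8AA. These were lost without untreated A or 8CA B (adjusted p = 0.0609 to 0.0946) and without untreated B, 8AA A, 8AA B or untreated A (adjusted p = 0.0532 to 0.112). The fall in KG-1a was already there at 8 h, with a log2 fold change of -0.27 ± 0.05 (SE, adjusted p = 0.000915) for 8AA against 0.09 for 8CA.

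The sensors and checkpoint kinases moved in both directions. ATM, the kinase that responds to double-strand breaks, measured 292 and 284 CPM without drug, 415 and 382 after 8CA and 359 and 332 after 8AA in MV4-11 at 24 h, so both drugs placed its libraries above the untreated pair. The log2 fold changes were 0.47 ± 0.07 (SE, adjusted p = 6.99e-05) with 8CA and 0.26 ± 0.07 (SE, adjusted p = 0.0108) with 8AA, and the latter call was lost without untreated B or 8AA A (adjusted p = 0.104 to 0.141). KG-1a libraries held 337 and 323 CPM without drug, 388 and 404 after 8CA and 293 and 386 after 8AA. There the log2 fold change with 8CA was 0.26 ± 0.08 (SE, adjusted p = 0.0174), a call lost without untreated A, 8CA B or untreated B (adjusted p = 0.0619 to 0.119). With 8AA it was 0.22 (adjusted p = 5.63e-05) without 8AA A and -0.18 (adjusted p = 0.00105) without 8AA B, so the direction followed the library left in.

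ATR, the kinase of stalled forks, fell in KG-1a with 8AA more than any other of the 36. Its libraries measured 112 and 106 CPM without drug, 95 and 98.9 after 8CA and 66.1 and 75.3 after 8AA in KG-1a at 24 h and 115 and 109.7 CPM without drug, 123 and 109 after 8CA and 116 and 109 after 8AA in MV4-11. The 8AA pair in KG-1a was below every other library of its time, and in MV4-11 the groups overlapped. The log2 fold change in KG-1a was -0.62 ± 0.06 (SE, adjusted p = 5.91e-07), -0.53 (adjusted p = 7.87e-09) without 8AA A and -0.72 (adjusted p = 2.86e-11) without 8AA B. The 8CA value there, -0.17 ± 0.06 (SE, adjusted p = 0.0322), was lost without 8CA B, untreated A or 8CA A (adjusted p = 0.0633 to 0.179). MV4-11 minus KG-1a gave 0.64 ± 0.10 (SE, adjusted p = 4.21e-05) for 8AA, and the call held in every alternative. At 8 h, 8AA lowered ATR in both lines, to log2 fold changes of -0.32 ± 0.07 (SE, adjusted p = 0.00361) in MV4-11 and -0.50 ± 0.06 (SE, adjusted p = 1.54e-05) in KG-1a, and the MV4-11 call was lost without untreated B (log2 fold change -0.20, adjusted p = 0.064).

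CHEK1 fell in MV4-11 with both drugs. It measured 80.1 and 78.8 CPM without drug, 61.9 and 58.1 after 8CA and 62.4 and 62.3 after 8AA in MV4-11 at 24 h and 252 and 246 CPM without drug, 253 and 251 after 8CA and 267 and 284 after 8AA in KG-1a. Log2 fold changes were -0.41 ± 0.05 (SE, adjusted p = 2.85e-05) and -0.35 ± 0.06 (SE, adjusted p = 0.000233) in MV4-11, and 0.14 ± 0.05 (SE, adjusted p = 0.022) with 8AA in KG-1a. The last call was lost without 8AA B, untreated A or untreated B (adjusted p = 0.0761 to 0.139), but the difference between the lines held with both drugs in every alternative, at -0.40 ± 0.07 (SE, adjusted p = 0.000575) for 8CA and -0.47 ± 0.07 (SE, adjusted p = 3.23e-05) for 8AA. TOPBP1 fell in MV4-11 with both drugs (-0.34 and -0.31), and did not pass in KG-1a. CHEK2 fell with 8CA in MV4-11 at -0.18 ± 0.06 (SE, adjusted p = 0.0175), a call lost without untreated B, untreated A or 8CA A (adjusted p = 0.0533 to 0.0977). Near-identical copies of CHEK2 elsewhere in the genome could share its reads.

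Of the MRE11 complex, RAD50 rose with 8CA in both lines and NBN in KG-1a. RAD50 measured 181 and 180.00 CPM without drug, 225 and 221 after 8CA and 183 and 191 after 8AA in MV4-11 and 40.03 and 39.9 CPM without drug, 48.6 and 49 after 8CA and 35.1 and 43.8 after 8AA in KG-1a at 24 h, with the 8CA libraries highest in both lines. Its log2 fold changes with 8CA were 0.30 ± 0.04 (SE, adjusted p = 5.73e-05) in MV4-11 and 0.29 ± 0.09 (SE, adjusted p = 0.0119) in KG-1a, where the call was lost without 8CA A, 8CA B, untreated B or untreated A (adjusted p = 0.0506 to 0.0709). With 8AA they were 0.05 and -0.02, and neither passed. The KG-1a 8AA value was 0.13 (adjusted p = 0.138) without 8AA A and -0.19 (adjusted p = 0.0374) without 8AA B. NBN rose in KG-1a with 8CA at 0.25 ± 0.05 (SE, adjusted p = 0.000639), which held in every alternative, and did not pass in MV4-11. ATRIP did not pass in any 24 h comparison, with log2 fold changes of -0.24, -0.26, -0.25 and -0.32 for MV4-11 8CA and 8AA and KG-1a 8CA and 8AA. Without 8AA A the last value was -0.10 (adjusted p = 0.587), and without 8AA B it was -0.55 (adjusted p = 0.00278) and passed. The span of ATRIP overlaps TREX1 over 7859 bases.

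EXO1 fell in MV4-11 with both drugs and did not pass in KG-1a. EXO1, which resects broken ends, measured 95.7 and 87.9 CPM without drug, 66.3 and 69.5 after 8CA and 65.7 and 68.5 after 8AA in MV4-11 at 24 h and 75.5 and 71.5 CPM without drug, 74.3 and 73.4 after 8CA and 81.4 and 78 after 8AA in KG-1a. The treated libraries were below both untreated ones in MV4-11 only. Its log2 fold changes in MV4-11 were -0.44 ± 0.05 (SE, adjusted p = 1.4e-05) and -0.45 ± 0.05 (SE, adjusted p = 2.8e-05), and MV4-11 minus KG-1a gave -0.42 ± 0.08 (SE, adjusted p = 0.000945) for 8CA and -0.55 ± 0.08 (SE, adjusted p = 1.82e-05) for 8AA, all 4 held in every alternative. RBBP8, or CtIP, which starts the resection, fell with 8AA in both lines, at -0.22 ± 0.06 (SE, adjusted p = 0.0176) in MV4-11 and -0.28 ± 0.05 (SE, adjusted p = 0.000459) in KG-1a. The MV4-11 call was lost without 8AA A or untreated A (adjusted p = 0.0896 to 0.11).

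The 3 helicases differed from each other. BLM, which dissolves joined chromosomes, fell in MV4-11 with both drugs (-0.31 and -0.35) and was at 0.07 and 0.00 in KG-1a, which did not pass. The line difference of BLM passed with both drugs, at -0.36 ± 0.07 (SE, adjusted p = 0.000812) and -0.33 ± 0.07 (SE, adjusted p = 0.00088). WRN, the Werner syndrome helicase, measured 75.3 and 71.7 CPM without drug, 73.3 and 73.7 after 8CA and 52.9 and 60.9 after 8AA in KG-1a at 24 h, and the 8AA libraries were below the untreated ones at a log2 fold change of -0.37 ± 0.06 (SE, adjusted p = 0.000154), held in every alternative. In MV4-11 it rose with 8CA to 0.22 ± 0.06 (SE, adjusted p = 0.0102), a call lost without 8CA A or untreated B (adjusted p = 0.0792 to 0.111). BRIP1, a helicase that binds BRCA1, measured 67.8 and 63.6 CPM without drug, 84 and 87.4 after 8CA and 69.1 and 87.5 after 8AA in KG-1a at 24 h. Its log2 fold change there was 0.38 ± 0.08 (SE, adjusted p = 0.00124) with 8CA, which held in every alternative, and 0.25 ± 0.08 (SE, adjusted p = 0.0185) with 8AA, which was lost without untreated B or 8AA B (adjusted p = 0.144 to 0.34).

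In the Fanconi anemia core complex, 5 of 8 genes fell in MV4-11 at 24 h with each drug and FANCF rose. FANCE, which touches FANCD2, measured 33.8 and 35 CPM without drug, 25.4 and 25 after 8CA and 25 and 24.7 after 8AA in MV4-11 and 27.1 and 26.7 CPM without drug, 24.6 and 27.3 after 8CA and 23 and 23.2 after 8AA in KG-1a. Its log2 fold changes in MV4-11 were -0.45 ± 0.07 (SE, adjusted p = 0.000146) and -0.47 ± 0.07 (SE, adjusted p = 0.000233). In KG-1a it passed with 8AA only, at -0.22 ± 0.08 (SE, adjusted p = 0.0349), a call lost without 8AA A, untreated B or untreated A (adjusted p = 0.0614 to 0.111). The scaffold FANCA fell with 8CA in both lines, at -0.41 ± 0.06 (SE, adjusted p = 2.96e-05) and -0.25 ± 0.07 (SE, adjusted p = 0.00631), and the KG-1a call was lost without 8CA B (log2 fold change -0.21, adjusted p = 0.0697). FANCA shares 3374 bases with ZNF276. FANCG, a core scaffold that binds FANCA, fell with 8CA in both lines (-0.42 in MV4-11 and -0.18 in KG-1a) and with 8AA fell in MV4-11 (-0.25) but rose in KG-1a (0.20). The KG-1a calls on FANCG were lost without untreated B or 8CA B (adjusted p = 0.143 to 0.18) for 8CA and without untreated A (log2 fold change 0.16, adjusted p = 0.12) for 8AA.

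FANCF, the adaptor of the core complex, was the exception in direction. It measured 14.5 and 16.6 CPM without drug, 20.3 and 21.5 after 8CA and 19.8 and 18.4 after 8AA in MV4-11 at 24 h and 23.8 and 23.6 CPM without drug, 19.7 and 22.7 after 8CA and 20.8 and 19.8 after 8AA in KG-1a. Its log2 fold changes were 0.43 ± 0.10 (SE, adjusted p = 0.0024) and 0.30 ± 0.10 (SE, adjusted p = 0.0351) in MV4-11, and the 8AA call was lost without 8AA B, 8AA A or untreated A (adjusted p = 0.0585 to 0.259). MV4-11 minus KG-1a gave 0.61 ± 0.14 (SE, adjusted p = 0.00495) for 8CA, which was lost without KG-1a 8CA A (log2 difference 0.49, adjusted p = 0.0557), and 0.54 ± 0.14 (SE, adjusted p = 0.00641) for 8AA. FANCB, which partners the ligase FANCL, and FANCC fell in MV4-11 with both drugs, FANCB at -0.40 and -0.39 and FANCC at -0.22 and -0.24. FANCB lost its calls without 8CA A, untreated B, untreated A or 8CA B (adjusted p = 0.0645 to 0.11) for 8CA and without 8AA A, untreated B, untreated A or 8AA B (adjusted p = 0.0866 to 0.178) for 8AA, and FANCC without untreated B or 8CA B (adjusted p = 0.162 to 0.17) and without 8AA B, 8AA A or untreated B (adjusted p = 0.0504 to 0.15). FANCL, the ubiquitin ligase, and FANCM, the anchor that places the complex on DNA, did not pass at 24 h in either line, with log2 fold changes of -0.16 to 0.17 and -0.22 to 0.09. With 8AA in KG-1a both passed as higher without 8AA A, FANCL at 0.24 (adjusted p = 0.00829) and FANCM at 0.29 (adjusted p = 0.00347). Without 8AA B they were at 0.09 and -0.12 and did not pass.

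The FANCD2 and FANCI pair, the targets of the core complex, fell together in MV4-11. FANCD2 measured 117 and 102 CPM without drug, 84.9 and 87.5 after 8CA and 91.1 and 93.2 after 8AA and FANCI measured 175 and 172 CPM without drug, 143 and 141 after 8CA and 137 and 136 after 8AA in MV4-11 at 24 h. Their treated libraries were below both untreated ones. Log2 fold changes with 8CA and 8AA were -0.34 ± 0.06 (SE, adjusted p = 0.000292) and -0.25 ± 0.06 (SE, adjusted p = 0.00616) for FANCD2 and -0.29 ± 0.05 (SE, adjusted p = 0.000105) and -0.35 ± 0.05 (SE, adjusted p = 4.79e-05) for FANCI. The FANCD2 8AA call was lost without untreated A (log2 fold change -0.14, adjusted p = 0.114). In KG-1a, FANCD2 fell with 8CA at -0.14 ± 0.04 (SE, adjusted p = 0.0146), which was lost without untreated A or 8CA A (adjusted p = 0.0793 to 0.102), and FANCI did not pass. FANCD2 has near-identical copies that could share its reads, and FANCI shares 827 bases with POLG.

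Among the nucleases that cut crosslinks and junctions, SLX4, the scaffold, rose in KG-1a with 8AA. It measured 49.5 and 51.1 CPM without drug, 52.2 and 52.4 after 8CA and 59.5 and 65.7 after 8AA in KG-1a at 24 h, and the 8AA libraries were above the untreated pair, at a log2 fold change of 0.32 ± 0.07 (SE, adjusted p = 0.000772), held in every alternative. MUS81, a catalytic subunit, rose in MV4-11 with 8AA at 0.29 ± 0.07 (SE, adjusted p = 0.00476), lost without 8AA B (log2 fold change 0.22, adjusted p = 0.0721). With 8CA it rose in KG-1a at 0.19 ± 0.05 (SE, adjusted p = 0.00935), lost without 8CA A, 8CA B or untreated A (adjusted p = 0.0523 to 0.115). EME1, its partner, fell in MV4-11 at -0.29 ± 0.09 (SE, adjusted p = 0.0147) and -0.26 ± 0.09 (SE, adjusted p = 0.0347). It rose in KG-1a with 8AA at 0.18 ± 0.06 (SE, adjusted p = 0.0234). EME1 shares 227 bases with LRRC59. The EME1 calls were lost without untreated B or 8CA A (adjusted p = 0.0868 to 0.0928), without untreated A, untreated B or 8AA A (adjusted p = 0.0769 to 0.253) and without untreated B, 8AA A or untreated A (adjusted p = 0.0536 to 0.18), in that order.

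The response to each drug was compared between the lines directly, as the log2 fold change of MV4-11 less that of KG-1a at 24 h. With 8CA, 9 of the 36 were lower in MV4-11 and 1 was higher, against 5.44% and 5.76% of all genes, at a median difference of -0.20. With 8AA, 15 were lower and 5 were higher, against 8.51% and 13.8%, at a median of -0.22. The 5 higher with 8AA were ATR, WRN, PALB2, FANCF and MUS81, of which PALB2 was lost without MV4-11 untreated B, KG-1a untreated A or KG-1a 8AA B (adjusted p = 0.0543 to 0.104) and MUS81 without KG-1a untreated A, MV4-11 untreated A, MV4-11 untreated B, KG-1a untreated B, MV4-11 8AA B or KG-1a 8AA B (adjusted p = 0.0646 to 0.398). Under every alternative tried, 5 of the 10 calls for 8CA (CHEK1, EXO1, BLM, BRCA1 and FANCI) and 13 of the 20 for 8AA stayed. XRCC2 with 8CA, at -0.47 ± 0.12 (SE, adjusted p = 0.0113), was lost without KG-1a untreated B or MV4-11 untreated A (adjusted p = 0.0574 to 0.068). Without 8AA A of KG-1a, 18 were lower and 5 higher, and without 8AA B 15 and 4. XRCC3 and RAD54L, lower in both lines, did not pass this test with either drug, with differences of -0.23 (95% interval -0.41 to -0.06, adjusted p = 0.0979) and 0.15 (-0.02 to 0.33) for XRCC3 and 0.01 (-0.15 to 0.18) and -0.02 (-0.18 to 0.14) for RAD54L.

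**Figure D5:**
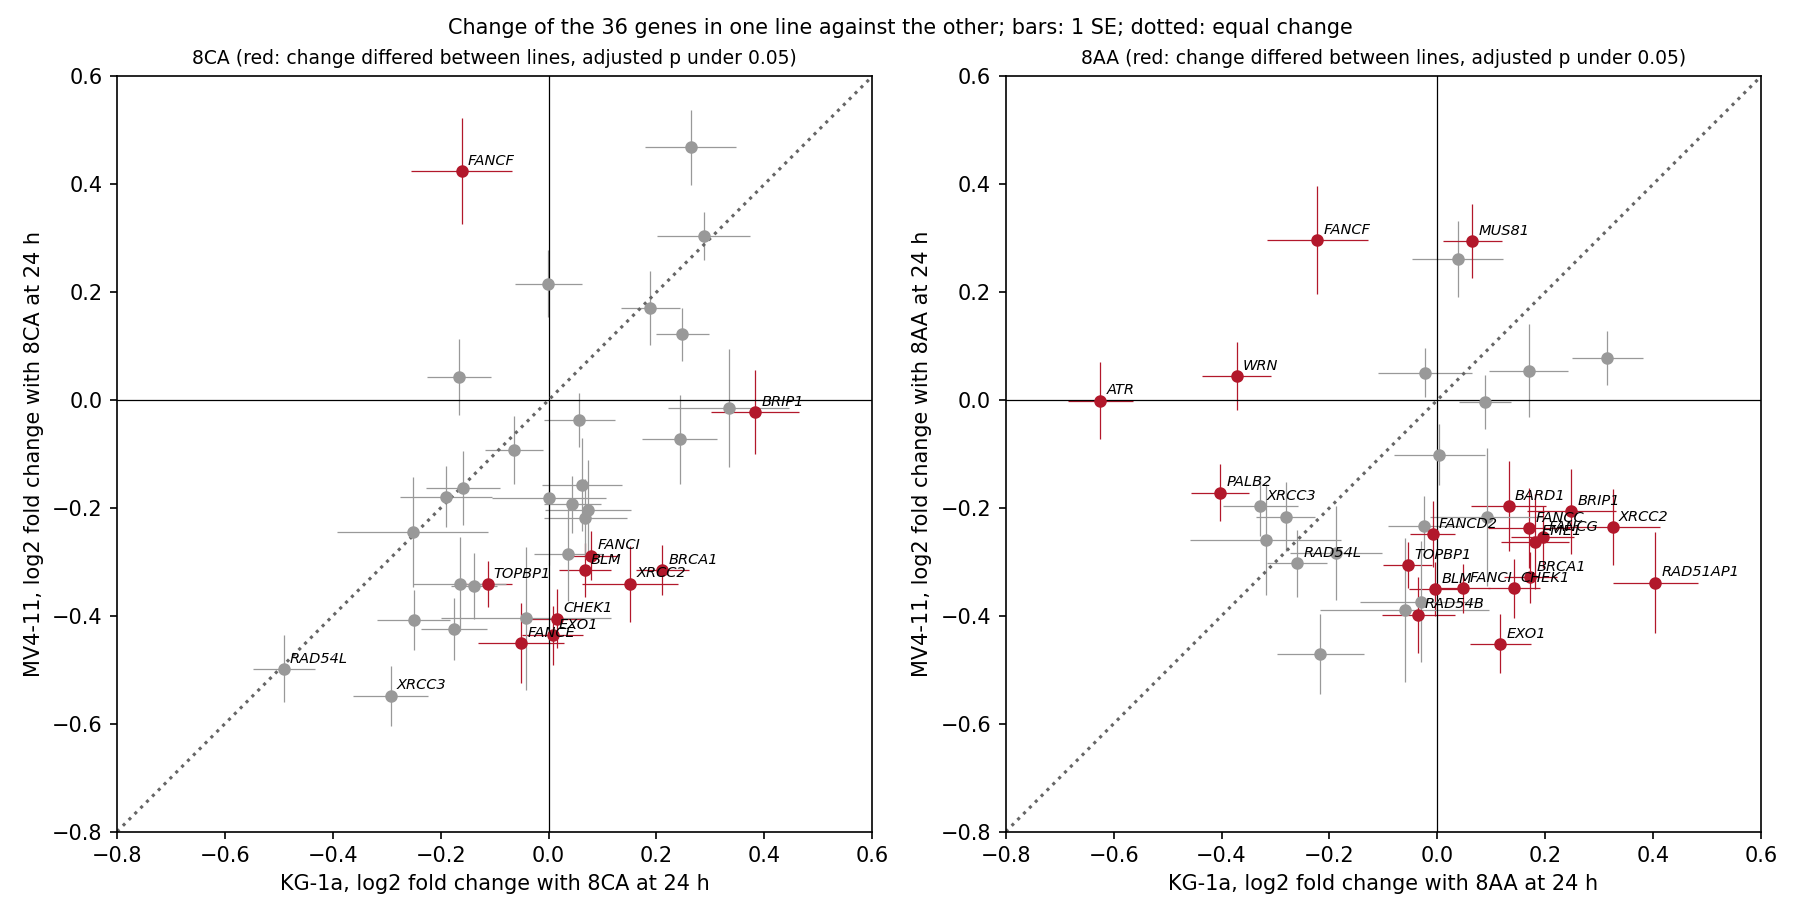
Log2 fold change at 24 h in KG-1a (x axis) against MV4-11 (y axis) for the 36 genes, with 8CA on the left and 8AA on the right; red points are genes whose difference between the lines was called (10 and 20). Most points lie below the diagonal, BRCA1 falls in MV4-11 (-0.31 and -0.33) and rises in KG-1a (0.21 and 0.17), and ATR is far to the left with 8AA (-0.62).

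8CA and 8AA, given at the same dose, were compared directly at each time, in 4 comparisons of 36 genes each with p-values adjusted over all genes. In MV4-11 at 8 h, 12 of the 36 were lower with 8AA than with 8CA and 0 were higher, against 3.7% and 2.96% of all genes, at a median log2 difference of -0.18. RAD54B had the largest, at 28.9 and 32 CPM untreated, 34.4 and 32.6 under 8CA and 24.6 and 23.8 under 8AA, so the 8AA libraries lay below all others, and the difference was -0.47 ± 0.07 (SE, adjusted p = 0.00103). EXO1 and XRCC2 followed, at -0.33 ± 0.06 (SE, adjusted p = 0.00206) and -0.32 ± 0.07 (SE, adjusted p = 0.0165). EXO1, BRCA1 and RAD54B kept the call in every alternative, while XRCC2 lost it without 8AA A or 8CA B (adjusted p = 0.114 to 0.121).

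At 24 h in MV4-11, 4 were lower with 8AA and 4 were higher than with 8CA, against 9.48% and 11.7% of all genes, at a median of -0.02. XRCC3 was higher with 8AA, by 0.35 ± 0.06 (SE, adjusted p = 0.00044), and BRCA2 and RAD50 were lower, at -0.36 ± 0.11 (SE, adjusted p = 0.0316) and -0.25 ± 0.04 (SE, adjusted p = 0.000904). XRCC3 and RAD50 kept these calls in every alternative and BRCA2 lost its call without 8AA B or 8CA A (adjusted p = 0.254 to 0.265). For EXO1, BRCA1 and FANCE the 95% intervals of the difference at 24 h were -0.13 to 0.09, -0.11 to 0.08 and -0.17 to 0.13.

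In KG-1a the compounds differed in both directions at both times, at shares of the 36 near those of all genes. These shares were 13.9% lower and 19.4% higher at 8 h and 22.2% and 19.4% at 24 h. At 8 h, 5 of the 36 were lower and 7 were higher with 8AA than with 8CA, against 15.8% and 14.7% of all genes. FANCG measured 53.3 and 57.3 CPM untreated, 51.1 and 54 under 8CA and 68.8 and 66.7 under 8AA, higher with 8AA by 0.37 ± 0.06 (SE, adjusted p = 0.000253). XRCC2 was also higher with 8AA, by 0.30 ± 0.09 (SE, adjusted p = 0.0191), and PALB2 was lower, at -0.36 ± 0.05 (SE, adjusted p = 9.87e-05). The XRCC2 call was lost without 8AA B, 8CA B, 8AA A or 8CA A (adjusted p = 0.0723 to 0.112). At 24 h, 8 were lower and 7 higher, against 21.7% and 20.3%, led by ATR at -0.46 ± 0.06 (SE, adjusted p = 2.53e-05), PALB2 at -0.45 ± 0.05 (SE, adjusted p = 8.66e-06) and WRN at -0.37 ± 0.06 (SE, adjusted p = 0.000237). Without 8AA A these counts were 6 and 11, and without 8AA B they were 9 and 5. Library size alone gave 5 and 13, and upper-quartile scaling 6 and 9. The 3 leading genes kept their calls without either library.

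The change at 24 h was also tested against that at 8 h. Of the genes lower with 8AA in MV4-11 at 24 h, 14 were already lower at 8 h, and subtracting the 8 h change from the 24 h change left 0 of the 36 called in the lower direction and 1 in the higher, against 2.12% and 2.51% of all genes. The gene called higher, WRN, measured 52.7 and 57.9 CPM untreated and 46.2 and 42.5 with 8AA at 8 h. At 24 h it measured 59.2 and 56 CPM untreated and 61.5 and 57.3 with 8AA. The difference was 0.37 ± 0.09 (SE, adjusted p = 0.0306) and was lost without untreated 24 h A, 8AA 8 h B, untreated 8 h B, untreated 24 h B or 8AA 24 h A (adjusted p = 0.0559 to 0.167).

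With 8CA in MV4-11 the change grew more negative between the times, and 16 of the 36 were lower at 24 h than at 8 h and 3 were higher (ATM, RAD50 and WRN), against 9.83% and 6.48% of all genes. EME1 differed most, with 19.5 and 22.2 CPM untreated and 24.5 and 25 with 8CA at 8 h, then 20.8 and 21.6 CPM untreated and 17.1 and 17.7 with 8CA at 24 h, below both. The change differed by -0.53 ± 0.12 (SE, adjusted p = 0.00769). XRCC3 and CHEK1 were next, at -0.50 ± 0.08 (SE, adjusted p = 0.000591) and -0.48 ± 0.08 (SE, adjusted p = 0.000793). Of the 19 calls, 10 held in every alternative.

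In KG-1a few of the 36 changed between the times. With 8CA, 3 were lower and 3 higher at 24 h than at 8 h, against 12.7% and 11.2% of all genes, and with 8AA 1 was lower and 2 were higher, against 10.7% and 7.64%. RAD54L was lower in both, at -0.47 ± 0.08 (SE, adjusted p = 0.000618) and -0.42 ± 0.08 (SE, adjusted p = 0.0017), and these held in every alternative. RAD54L measured 86.9 and 79.8 CPM untreated, 82.3 and 82.1 under 8CA and 94.3 and 92.4 under 8AA at 8 h in KG-1a, where 8CA gave a log2 fold change of -0.02 that did not pass. Higher at 24 h were RAD50 and BRIP1 with 8CA, at 0.38 ± 0.12 (SE, adjusted p = 0.035) and 0.34 ± 0.12 (SE, adjusted p = 0.0437), and MUS81 and BRCA1 with 8AA, at 0.34 ± 0.08 (SE, adjusted p = 0.00613) and 0.27 ± 0.07 (SE, adjusted p = 0.0139). RAD50 lost its call without 8CA 8 h B, 8CA 24 h A, 8CA 24 h B, untreated 24 h B, untreated 24 h A, 8CA 8 h A or untreated 8 h B (adjusted p = 0.0706 to 0.143), BRIP1 without any 1 of its 8 libraries (adjusted p = 0.0763 to 0.159) and BRCA1 without 8AA 8 h B, 8AA 8 h A, untreated 8 h A or untreated 24 h B (adjusted p = 0.0514 to 0.0744). Without 8AA A the 8AA counts were 3 and 5, and without 8AA B they were 9 and 2.

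The largest 8 h changes not yet given were with 8AA. In MV4-11, FANCB measured 10.6 and 13.8 CPM untreated and 9.92 and 8.42 with 8AA, at a log2 fold change of -0.42 ± 0.14 (SE, adjusted p = 0.0332), which was lost without 8AA B or untreated B (adjusted p = 0.222 to 0.336). FANCE fell by the same test to -0.34 ± 0.08 (SE, adjusted p = 0.00299), and SLX4 rose to 0.22 ± 0.05 (SE, adjusted p = 0.00381). In KG-1a, ATRIP measured 9.16 and 9.9 CPM untreated and 7.97 and 6.77 with 8AA, at a log2 fold change of -0.38 ± 0.14 (SE, adjusted p = 0.0432), which was lost without untreated A, untreated B or 8AA B (adjusted p = 0.0775 to 0.281). MUS81 measured 76.7 and 74.7 CPM untreated and 62.7 and 62.2 with 8AA, at -0.28 ± 0.06 (SE, adjusted p = 0.00112). FANCL rose from 30.2 and 34.1 CPM untreated to 39.4 and 41.4 with 8AA, at 0.33 ± 0.07 (SE, adjusted p = 0.00289). FANCC rose from 24.4 and 22.8 CPM to 28.3 and 29.996, at 0.31 ± 0.07 (SE, adjusted p = 0.00476). The FANCC call was lost without 8AA B or untreated B (adjusted p = 0.057 to 0.058). FANCL overlaps VRK2 over 678 bases.

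Other genes of the same pathway were more often lower than higher in MV4-11 at 24 h. Of 56 other recombination and Fanconi anemia genes tested in MV4-11 at 24 h, 20 were lower and 7 higher with 8CA and 23 were lower and 5 higher with 8AA. Of 55 tested in KG-1a, 14 were lower and 9 higher with 8CA and 12 and 8 with 8AA. The shares lower were 35.7% and 41.1% in MV4-11, against 22.7% and 15.3% of all genes, and 25.5% and 21.8% in KG-1a, against 24% and 26.6% of all genes. RPA3, a subunit of the single-strand binding protein, and UBE2T, the ubiquitin-conjugating enzyme of the core complex, had log2 fold changes in MV4-11 of -0.69 and -0.62 for 8CA and of -0.47 and -0.50 for 8AA. CENPX, a FANCM partner, was at -0.61 with 8CA in MV4-11 and at -0.68 and -0.58 with 8CA and 8AA in KG-1a. The nuclease subunit EME2 rose, at 0.52 with 8AA in MV4-11 and 0.82 with 8CA in KG-1a. The BRCA1 partner ABRAXAS1 was at 0.74 with 8CA in KG-1a, and the ubiquitin ligase RNF168 and the FANCD2 deubiquitinase subunit WDR48 were at 0.63 and 0.52 with 8AA.

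Genes of S phase were mostly lower in both lines at 24 h, and genes of G2 and mitosis were mostly lower in MV4-11. Of 22 S phase genes, 20 and 22 were lower in MV4-11 at 24 h with 8CA and 8AA, and 18 and 16 were lower in KG-1a, where 1 was higher with each. Their medians in KG-1a were -0.34 and -0.23, beside the 0.01 and -6.9e-05 of the 36. Of 20 G2/M genes, 17 and 20 were lower in MV4-11, at medians of -0.38 and -0.38, while in KG-1a 9 were lower and 6 higher with 8CA and 3 were lower and 10 higher with 8AA. Of all genes at 24 h, 22.7% (8CA) and 15.3% (8AA) were lower in MV4-11. In KG-1a 24% of all genes were lower and 23.4% higher with 8CA, and 26.6% and 25.4% with 8AA. The part of the S phase and G2/M genes in the changes of the 36 was not tested.

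The fall in MV4-11 was set beside promoter sequence. RefSeq promoters on GRCh38.p14, 250 bases before to 50 after a gene's start, were found for 32 of the 36. Letters bound by E2F factors, which drive transcription at the start of DNA replication, were searched on both strands as TTTCGCGC, TTTGGCGC, TTTCCCGC and TTTGCCGC. They were in 6 of the 32 promoters (18.8%) and in 3.33% of 27305 promoters of all genes. All 6 genes were lower in MV4-11 at 24 h with both drugs, as were 12 (8CA) and 14 (8AA) of the 26 without the letters, so falls were not limited to promoters that hold them. In KG-1a 2 of the 6 were lower with 8CA and 0 with 8AA, where 1 was higher. The letters CCAAT of NF-Y were in 14 of the 32 (43.8%, against 35.7% of all) and TTTGAA of the cell cycle homology region in 3 (9.38%, against 15.4%). A match is a description of letters and not of binding. The stretches around the E2F letters are shown because all 6 genes were lower in MV4-11 with both drugs, 5′ to 3′ on the gene's strand with the matched letters in capitals, at chr3:133661912-133662011 (minus strand) for TOPBP1, chr1:241848134-241848233 (plus) for EXO1, chr7:152676112-152676211 (minus) for XRCC2, chr3:10026367-10026466 (plus) for FANCD2, chr16:89816768-89816867 (minus) for FANCA and chr9:95317710-95317909 (minus) for FANCC.
TOPBP1: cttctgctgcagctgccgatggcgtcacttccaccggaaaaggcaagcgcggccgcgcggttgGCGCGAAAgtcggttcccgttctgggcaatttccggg
EXO1: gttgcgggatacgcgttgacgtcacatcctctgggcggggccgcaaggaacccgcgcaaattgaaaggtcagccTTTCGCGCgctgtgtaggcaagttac
XRCC2: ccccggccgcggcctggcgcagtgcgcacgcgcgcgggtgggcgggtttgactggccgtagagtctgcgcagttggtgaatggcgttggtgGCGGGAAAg
FANCD2: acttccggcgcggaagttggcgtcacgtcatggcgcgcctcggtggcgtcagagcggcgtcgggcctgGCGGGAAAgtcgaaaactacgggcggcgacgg
FANCA: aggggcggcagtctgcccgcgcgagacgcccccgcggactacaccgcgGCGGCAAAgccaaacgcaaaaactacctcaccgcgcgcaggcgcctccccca
FANCC: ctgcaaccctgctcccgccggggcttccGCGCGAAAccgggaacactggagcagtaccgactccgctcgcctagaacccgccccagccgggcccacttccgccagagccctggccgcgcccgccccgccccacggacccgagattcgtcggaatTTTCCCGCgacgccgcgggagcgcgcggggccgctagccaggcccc

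Gene length was not used to choose the genes. Across the 36 genes, Spearman's rho between exon length and log2 fold change at 24 h was 0.34 (8CA) and 0.045 (8AA) in MV4-11 and 0.24 and -0.084 in KG-1a, and across all genes it was 0.19, 0.081, 0.16 and 0.076. These describe genes in shared libraries, which are not independent. The 2 KG-1a 8AA libraries at 24 h differed along length: 26 of the 36 were lower in A than in B, against 5898 of 12711 genes, and rho between exon length and the difference was -0.48 over the 36 and -0.35 over all genes. Without A, 8 of the 36 were lower and 14 higher than untreated, and without B, 13 and 6, beside 7 and 8 with both. For all genes the shares were 28.4% and 25.9% without A and 26.9% and 24.5% without B. Called in the same direction either way were ATR, RBBP8, WRN, PALB2, XRCC3 and RAD54L as lower and BRCA1, RAD51AP1, FANCG and SLX4 as higher. Some genes passed only with 1 of the libraries left out. Without A these were ATM, NBN, BRCA2, FANCC, FANCI, FANCL and FANCM as higher and RAD51C and FANCF as lower. Without B they were EXO1 as higher and ATM, ATRIP, TOPBP1, RAD50, BRCA2 and FANCB as lower, of which FANCB was at -0.36 (adjusted p = 0.0267) against 0.20 (adjusted p = 0.189) without A. The part of the library difference in the KG-1a 8AA results was not tested beyond these values.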

How the data were processed

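RNA from MV4-11 and KG-1a cells was sequenced in 24 libraries of 12 groups (2 libraries each, n = 2). The authors deposited read counts per gene, whole numbers that were not normalized, together with gene positions and an exon length. The submitters' processing notes name Trimmomatic, STAR 2.6.0, HTSeq 0.11.1 and edgeR, and the builds hg19 and hg38 with no role given. The positions of the 36 genes did not match GRCh38, so no coordinate of the count table is printed. Whether the counting used strand is not given in the sources used here.

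The 36 genes and every other gene list were chosen with earlier results of these data known. Counts were tested with edgeR 4.0.16 in R 4.3.3. Genes with low counts were removed (filterByExpr, minimum count 10), leaving 12800 genes in MV4-11, 12711 in KG-1a and 14055 with both lines in 1 fit, TMM factors scaled the libraries, and the two-sided quasi-likelihood test was called at 0.05 after Benjamini-Hochberg adjustment across every gene that passed the filter. Each line was fitted with its 12 libraries and 1 coefficient per group, with no other covariate. Differences between lines came from 1 fit of all 24. The standard error is the log2 fold change divided by the square root of the F statistic. CPM values are TMM-scaled, and RPKM values divide them by the deposited exon length. The scripts were tested on simulated data.

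Members were chosen for library values by a rule. At 24 h these were the 4 called with the largest fall and the 4 with the largest rise in each drug comparison. At 8 h they were the 3 of each, and in each other comparison the 3 called members with the largest value. Members called alike in all 4 comparisons at 24 h were added. For some of these members only the log2 change in that comparison was printed. Of the other pathway genes, the 3 called with the largest change in each 24 h comparison were named. Library totals were 18633963 to 24520078 reads. The coefficient of variation that edgeR calls biological was 0.0422 in MV4-11 and 0.0418 in KG-1a. It measures the spread between libraries of a group, which may be technical here. Libraries with the same letter were compared over 15 pairs of groups in each line. Correlations of their deviations ran from -0.117 to 0.159 in MV4-11 and from -0.0846 to 0.161 in KG-1a. These low values do not settle whether a letter marks a shared step, and the letters were not used as pairs in the main fit. Alternatives were other scalings, other filters, 1 fit for both lines, a replicate block, DESeq2 1.42.0 and leaving out each library in turn.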

Additional observations from a re-analysis of the deposited data

Results flagged for a closer look

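Some responses differed between the lines or between the times when the difference itself was tested with edgeR's quasi-likelihood test. The KG-1a change at 24 h was taken from the MV4-11 change. Under 8CA the test called 10 of the 36 genes, against 5.44% of all genes lower and 5.76% higher. The 3 largest were FANCF at 0.61, BRCA1 at -0.50 and XRCC2 at -0.47 on the log2 scale. With 8AA the difference was called in 20 of the 36, against 8.51% of all genes lower and 13.8% higher. Here the 3 largest were RAD51AP1 at -0.72, ATR at 0.64 and EXO1 at -0.55.

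Taking the 8 h change from the 24 h change gave 19 called genes with 8CA in MV4-11. The shares of all genes were 9.83% lower and 6.48% higher. The 19 were led by EME1 at -0.53, XRCC3 at -0.50 and CHEK1 at -0.48. With 8AA in MV4-11 the difference was called in 1 gene, WRN, at 0.37, against 2.12% of all genes lower and 2.51% higher. In KG-1a the difference was called in 6 genes with 8CA, led by RAD54L at -0.47, RAD50 at 0.38 and BRIP1 at 0.34. These were 8.33% lower and 8.33% higher, below the 12.7% and 11.2% of all genes. With 8AA in KG-1a the difference was called in 3 genes, RAD54L at -0.42, MUS81 at 0.34 and BRCA1 at 0.27. These were 2.78% lower and 5.56% higher, below the 10.7% and 7.64% of all genes. Groups held 2 libraries each, so no library was tested as an outlier within its group.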

How the results depend on the processing

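Of 373 counts of called genes recomputed under the alternatives, 287 stayed within 1.5 times the main count, and of 946 values of single named genes that passed in the main test 845 kept their call, 101 lost it and 0 turned in sign. Genes that did not pass there are not in that count, and for 8AA at 24 h ATM and BRCA2 passed in opposite directions without KG-1a 8AA A and without KG-1a 8AA B. The cause was not tested, but leaving out 1 library also leaves fewer samples, and the lone library is then assumed to vary like the other groups.

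In MV4-11 with 8CA at 8 h, the genes called lower were 0 by library size alone or upper-quartile scaling, and those called higher were 2 by library size, with no filter or with both lines in 1 fit, and 0 by DESeq2. With 8AA at 8 h in MV4-11 the genes called higher were 2 under library size, upper-quartile scaling, no filter, a minimum of 10 counts in every library and 1 fit for both lines. In KG-1a at 8 h, no filter gave 1 higher with 8CA, and DESeq2 gave 6 higher with 8AA. At 24 h, library size alone gave 14 lower with 8AA in MV4-11, and upper-quartile scaling gave 3 lower with 8CA in KG-1a. With 8AA in KG-1a, library size and upper-quartile scaling each gave 15 higher. There library size moved the median of all genes by 0.108 and split all genes into 19.6% lower and 35.6% higher, and upper-quartile scaling into 21% and 33.2%. Library size also moved that median to -0.103 for the untreated lines, and split all genes into 15.7% lower and 27.5% higher for 8AA against 8CA in KG-1a at 24 h. In MV4-11, DESeq2 called 3 genes for 8AA against 8CA at 24 h, and the 8AA change between the times was called in 4 genes with no filter and in 2 with both lines in 1 fit. With no filter, 2 genes differed between the untreated times in KG-1a.

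The replicate block took the letters as pairs, which the labels do not state. In MV4-11 it gave 2 lower and 3 higher with 8CA at 8 h and 2 higher with 8AA at 8 h. It also gave 4 genes for the 8AA change between the times and 4 for the untreated times in MV4-11. At 24 h it gave 21 lower and 6 higher with 8CA and 24 and 3 with 8AA in MV4-11, and in KG-1a 7 and 8 (8CA) and 9 and 9 (8AA).

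Leaving out 1 library at a time gave, at 24 h, 12 to 16 lower and 1 to 2 higher in MV4-11 with 8AA, 3 to 7 lower and 3 to 6 higher in KG-1a with 8CA, and 6 to 13 lower and 3 to 14 higher in KG-1a with 8AA. At 8 h it gave 0 to 1 lower and 0 to 1 higher in MV4-11 with 8CA, 1 to 2 higher in MV4-11 with 8AA, and 3 to 5 lower and 4 to 7 higher in KG-1a with 8AA. For 8AA against 8CA the counts were 3 to 8 (8 h) and 2 to 5 (24 h) in MV4-11 and 5 to 7 and 8 to 17 in KG-1a. The line difference with 8CA ran from 6 to 8. Changes between the times ran from 10 to 15 (8CA) and 0 to 2 (8AA) in MV4-11, 1 to 4 (8CA) and 2 to 11 (8AA) in KG-1a, and 0 to 2 for untreated MV4-11.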
